A study of Homo sapiens with 4 samples.

Results

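Natural killer (NK) cells kill a target when activating receptors on the NK cell bind ligands on the target, and the 10 genes examined here encode such ligands. The rows of the count table whose symbol was MICA, MICB, ULBP1, ULBP2, ULBP3, RAET1E, RAET1G, RAET1L, NCR3LG1 or PVR were taken, which gave 10 of 35606 genes, each with 1 row. The libraries came from K562 cells, a human chronic myelogenous leukaemia line. One group of 2 libraries (JAZF1-SUZ12 1 and 2) came from cells described as JAZF1-SUZ12, a fusion gene known from endometrial stromal tumours, made of parts of JAZF1 and of SUZ12, a subunit of Polycomb repressive complex 2 (PRC2). The other group of 2 libraries (mock 1 and 2) came from cells described as mock. Nothing in the labels says how the fusion was delivered, what the mock cells received, whether the cells were 1 clone, or whether the 2 libraries of a group came from separate cultures. P-values therefore measure only the spread between these libraries, which may be technical.

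The receptor NKG2D recognises stress-induced relatives of major histocompatibility complex (MHC) class I molecules: MICA and MICB, encoded in the MHC, and the ULBP and RAET1 proteins, encoded together on the long arm of chromosome 6. These ligands are scarce on most healthy cells and are raised by DNA damage, proteotoxic stress or transformation. NKp30 binds the product of NCR3LG1, and DNAM-1 (CD226) binds PVR, which is also bound by the inhibitory receptors TIGIT and CD96. K562 is a classical NK target because it displays such ligands and almost no MHC class I.

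The libraries held between 17260936 and 24423028 estimated counts, and 14750 genes had enough counts to be tested. As a check of the labels, JAZF1 was counted at 12 and 27 in mock and at 574 and 731 with JAZF1-SUZ12, and SUZ12 rose by 1.01 on the log2 scale (edgeR's quasi-likelihood test, adjusted p = 1.15e-09). Levels are given as CPM, counts scaled to library totals of 1e+06. The 8 erythroid markers of K562 summed to 6930 and 7163 CPM in mock and to 8205 and 8286 CPM with JAZF1-SUZ12, and 3 of the 8 (ALAS2, HBG1 and HBZ) were called higher, as were 13.3% of all genes. The source label reads uterus. Of 9 stromal markers LUM was at 0 in every library and COL3A1 at 1 to 3 counts, but COL1A1 was called higher (edgeR), with 106 and 136 counts in mock and 370 and 521 with JAZF1-SUZ12. The stromal sum was 14.4 and 15.0 CPM in mock and 32.2 and 33.3 CPM with JAZF1-SUZ12, so it moved with the ligands described below, and its part in their differences was not tested. Most of that rise was COL1A1 itself, at a mean of 5.79 CPM in mock and 21.4 CPM with JAZF1-SUZ12, and the other tested stromal markers, COL1A2, DCN and PGR, were not called. In bulk RNA, fewer cells of a type and less RNA per cell cannot be told apart. Of 14 markers of NK and T cells, 2 had at most 3 counts in every library, and KLRK1, which encodes NKG2D, had between 5 and 13. Their summed level was 248 to 261 CPM, of which most was PTPRC, with 3823 to 5243 counts. Others were counted too: PRF1 at 252 to 419, CD226 (DNAM-1) at 145 to 247, KLRD1 at 41 to 82 and CD96 at 24 to 56. CD226 was at 7.09 and 7.47 CPM in mock and at 9.33 and 10.1 CPM with JAZF1-SUZ12. It is the 1 marker that passed the unadjusted threshold given below. Of the 9 tested markers, 6 had positive log2 fold changes. None of the 9 tested NK and T cell markers was called (edgeR, adjusted p under 0.05; 1 had an unadjusted p under 0.05, and DESeq2 called 0).

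The ligands are given in 3 sets by call and count, and genes of a set need not have changed alike. ULBP2, ULBP1 and MICA were higher in JAZF1-SUZ12 than in mock libraries. MICB, ULBP3, NCR3LG1 and PVR were counted in every library but did not pass the test, and RAET1E, RAET1G and RAET1L were at or near 0 throughout. Of the 7 members with enough counts, 3 were called higher and 0 lower. The background over the whole table was 13.3% called higher, 11.4% lower and 24.7% in either direction. DESeq2, run as an alternative, also called 3 members higher and 0 lower, where its background was 9.19% higher, 7.13% lower and 16.3% in either direction. At an unadjusted p under 0.05, edgeR and DESeq2 each found 0 members lower. Of the 7 tested members 5 were higher in both JAZF1-SUZ12 libraries than in both mock libraries, which holds for 33.8% of all genes tested. The median log2 fold change of the 7 members was 0.47, and that of all genes tested was 0.0032. ULBP3 entered the test only through its JAZF1-SUZ12 libraries, since at least 0.479 CPM was needed in 2 libraries, so the counts and the median over the 7 are a description only.

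**Figure D1:**
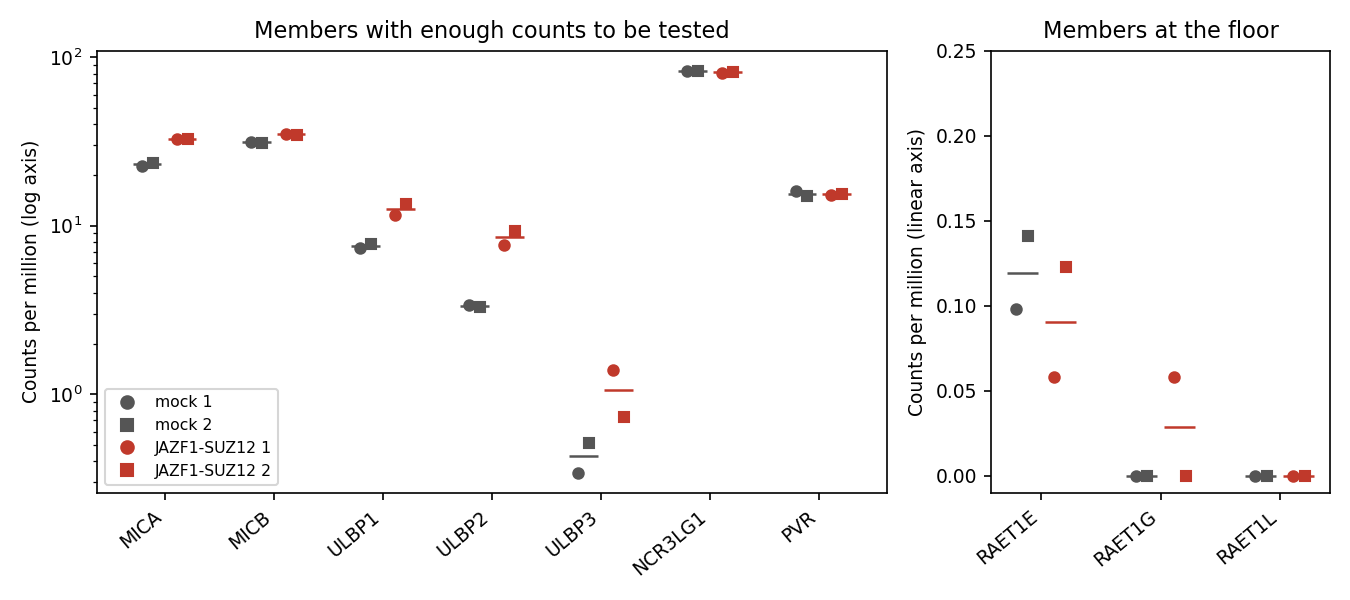
Level of each ligand in each library, in CPM, on a log axis for the 7 tested genes (left) and a linear axis for the 3 genes at the floor (right). Each point is a library and each bar the mean of 2. For MICA, ULBP1 and ULBP2 both JAZF1-SUZ12 libraries lie above both mock libraries with a wide gap, whereas the points of NCR3LG1 and PVR nearly coincide.

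ULBP2, a ligand held in the membrane by a glycosylphosphatidylinositol (GPI) anchor, changed most among the members that passed the test (ENSG00000131015; GRCh38, GENCODE 29, chromosome 6, 149942000 to 149949235, plus strand). It was counted at 69 and 70 in mock and at 133 and 228 with JAZF1-SUZ12. Its level was 3.38 and 3.29 CPM in mock and 7.71 and 9.34 CPM with JAZF1-SUZ12, so the lowest JAZF1-SUZ12 library was above the highest mock library. The mean rose from 3.33 ± 0.0623 to 8.52 ± 1.15 CPM (SD, n = 2 each) and the fitted fold was 2.53. On the log2 scale the difference was 1.34, standard error 0.19 (edgeR, adjusted p = 0.000112).

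ULBP1 is the neighbouring GPI-anchored ligand, whose transcription is known to be driven by the stress factor ATF4 (ENSG00000111981; chromosome 6, 149964007 to 149973710, plus strand). It was counted at 151 and 165 in mock and at 199 and 331 with JAZF1-SUZ12. These correspond to 7.39 and 7.75 CPM in mock against 11.5 and 13.6 CPM with JAZF1-SUZ12, with no overlap. On the log2 scale the difference was 0.71, standard error 0.15 (edgeR, adjusted p = 0.00206), or 1.64-fold. JAZF1-SUZ12 replicate 2 was the higher library of its group for both ULBP1 and ULBP2, and without it the log2 fold changes were 0.60 and 1.2 (edgeR, adjusted p = 0.0174 and 0.000188).

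ULBP3, the third GPI-anchored member, was scarce (ENSG00000131019; chromosome 6, 150063150 to 150069095, minus strand). It was counted at 7 and 11 in mock and at 24 and 18 with JAZF1-SUZ12, or 0.342 and 0.517 against 1.39 and 0.737 CPM. The log2 fold change of 1.24 was close to that of ULBP2, but its standard error was 0.58 and it did not pass the test (edgeR, adjusted p = 0.132). Leaving out JAZF1-SUZ12 replicate 1 gave 0.73 and leaving out replicate 2 of that group gave 1.67, so its size rested on single libraries.

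The balance among the ULBP genes was compared as well. ULBP2 made up 31.4% and 29.8% of the ULBP1 and ULBP2 counts in mock, and 40.1% and 40.8% with JAZF1-SUZ12. The exact binomial 95% intervals, which cover counting error only, ran from 25.3% to 37.9% and from 24.0% to 36.1% in mock, and from 34.7% to 45.6% and from 36.7% to 45.0% in JAZF1-SUZ12 libraries. The difference of 9.85 percentage points had a two-sided exact permutation p of 0.333, the smallest that 2 against 2 libraries allow, and 0.444 after adjustment over the 4 shares computed, so this design could not have placed it past the threshold. Summed over ULBP1, ULBP2 and ULBP3, the level was 11.3 ± 0.318 CPM in mock against 22.1 ± 2.13 CPM with JAZF1-SUZ12 (SD, n = 2 each), and no test was made of the sum.

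The sequences upstream of the 3 ULBP genes are shown because these genes lie in one cluster and the 2 called NKG2D ligands outside the MHC are among them. They are taken from RefSeq (GRCh38.p14) and cover bases -250 to -21 from the RefSeq start, at chr6:149941764-149941993 on the plus strand for ULBP2, chr6:149963693-149963922 on the plus strand for ULBP1 and chr6:150069142-150069371 on the minus strand for ULBP3. Capitals mark 2 motifs, searched on both strands: the GC box GGGCGG, a binding motif of SP1, and TGACG, the core of the cyclic AMP response element that ATF and CREB factors bind.
ULBP2: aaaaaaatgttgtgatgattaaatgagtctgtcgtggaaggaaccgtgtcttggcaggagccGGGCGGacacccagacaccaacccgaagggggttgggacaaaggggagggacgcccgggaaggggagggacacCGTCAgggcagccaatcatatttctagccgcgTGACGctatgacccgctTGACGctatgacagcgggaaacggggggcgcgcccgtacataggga
ULBP1: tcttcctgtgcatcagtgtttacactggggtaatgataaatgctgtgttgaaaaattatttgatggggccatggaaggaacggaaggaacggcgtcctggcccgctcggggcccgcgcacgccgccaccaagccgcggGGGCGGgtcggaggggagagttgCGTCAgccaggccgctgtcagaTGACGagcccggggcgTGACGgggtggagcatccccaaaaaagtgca
ULBP3: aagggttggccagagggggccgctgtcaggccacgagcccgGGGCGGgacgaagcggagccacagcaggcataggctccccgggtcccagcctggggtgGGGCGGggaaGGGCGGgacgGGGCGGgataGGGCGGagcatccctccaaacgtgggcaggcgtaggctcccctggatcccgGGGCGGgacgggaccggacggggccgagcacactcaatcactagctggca

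TGACG occurred 3 times upstream of ULBP2, starting at bases -115, -83 and -66, and 3 times upstream of ULBP1, at -89, -67 and -51. It occurred 0 times in the windows of ULBP3 and of the other 7 members. Of 35116 RefSeq promoter windows of the same length, 19.5% held at least 1 match. The GC box occurred 6 times upstream of ULBP3 and 1 time upstream of each of ULBP1 and ULBP2, and 40% of all windows held it. A match is a description of letters and not a site of binding. In global alignments the ULBP windows were 47.2% to 50.2% identical to one another.

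MICA is a transmembrane ligand encoded among the MHC class I genes (ENSG00000204520; chromosome 6, 31399784 to 31415315, plus strand). It was counted at 465 and 504 in mock and at 563 and 798 with JAZF1-SUZ12, which is 22.7 and 23.7 CPM against 32.6 and 32.7 CPM. The 2 JAZF1-SUZ12 libraries were almost equal, and both were above both mock libraries. The mean rose from 23.2 ± 0.651 to 32.6 ± 0.0404 CPM (SD, n = 2 each), and the fitted fold was 1.39. On the log2 scale the difference was 0.47, standard error 0.08 (edgeR, adjusted p = 0.00054).

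MICB, the closest relative of MICA, lies on the same strand further along the MHC (ENSG00000204516; chromosome 6, 31494881 to 31511124, plus strand). It was counted at 645 and 657 in mock and at 605 and 847 with JAZF1-SUZ12, or 31.5 and 30.8 CPM against 35.0 and 34.7 CPM. The groups did not overlap, but the log2 fold change of 0.14 had a standard error of 0.07 and did not pass (edgeR, adjusted p = 0.198). Groups that do not overlap are common with 2 libraries each: 61% of all genes tested showed this. MICA made up 41.9% and 43.4% of the MICA and MICB counts in mock, against 48.2% and 48.5% with JAZF1-SUZ12. This difference of 5.7 percentage points also had an exact permutation p of 0.333, the smallest possible (0.444 adjusted). Both genes together were 1.24 times higher in JAZF1-SUZ12 libraries, against 1.41 times for MICA alone, as ratios of mean CPM.

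The windows before the RefSeq starts of MICA and MICB are shown because the 2 genes gave different calls from closely alike sequence. Both windows lie inside the GENCODE spans given above, which begin earlier, at 31399784 for MICA and 31494881 for MICB. They cover bases -250 to -61 from the RefSeq start, at chr6:31403345-31403534 and chr6:31497895-31498084 on the plus strand, and stop there because an exon of another MICB transcript in GENCODE begins just beyond. Capitals mark the GC box, here read on the opposite strand as CCGCCC.
MICA: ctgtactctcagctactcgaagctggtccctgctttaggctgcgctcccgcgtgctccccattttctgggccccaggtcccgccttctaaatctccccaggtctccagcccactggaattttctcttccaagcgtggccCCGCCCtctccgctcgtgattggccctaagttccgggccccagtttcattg
MICB: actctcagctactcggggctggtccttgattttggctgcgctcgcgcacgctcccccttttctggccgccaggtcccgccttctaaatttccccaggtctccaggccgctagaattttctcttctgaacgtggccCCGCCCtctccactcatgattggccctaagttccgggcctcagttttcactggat

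Over bases -250 to -21 the 2 windows were 84.2% identical in a global alignment. Each held 1 GC box and 1 match to GAANNTTC, the core of the heat shock element that HSF1 binds, starting at base -135 in MICA and -139 in MICB. GAANNTTC was found in 5.28% of all windows and in 0 windows of the other 8 members. MICA held 2 matches to CCAAT and MICB 1, and 30.7% of all windows held at least 1. Neither window held TGACG or the E-box CACGTG, which 5.74% of all windows held.

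NCR3LG1, the ligand of NKp30, had the highest counts of the 10 genes (ENSG00000188211; chromosome 11, 17351726 to 17377341, plus strand). It was counted at 1698 and 1753 in mock and at 1395 and 2010 with JAZF1-SUZ12. Set against library totals these were 83.1 and 82.3 CPM in mock and 80.8 and 82.3 CPM with JAZF1-SUZ12, and the groups nearly met. On the log2 scale the difference was -0.041, standard error 0.056 (edgeR, adjusted p = 0.645).

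PVR, the ligand of DNAM-1, was counted at 329 and 319 in mock and at 264 and 377 with JAZF1-SUZ12 (ENSG00000073008; chromosome 19, 44643798 to 44663583, plus strand). Its level was 16.1 and 15.0 CPM in mock and 15.3 and 15.4 CPM with JAZF1-SUZ12, and the groups overlapped. On the log2 scale the difference was -0.037, standard error 0.11 (edgeR, adjusted p = 0.849), and leaving out mock replicate 1 gave 0.018, so no direction can be given.

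RAET1E, RAET1G and RAET1L were at the floor. RAET1E, a transmembrane ligand, was counted at 2 and 3 in mock and at 1 and 3 with JAZF1-SUZ12. RAET1G had 1 count in JAZF1-SUZ12 replicate 1 and 0 in the other libraries, and RAET1L had 0 in all 4. A count of 0 allows up to 3 counts, which is 0.123 to 0.174 CPM at the depth of these libraries, and no fold is given for these genes.

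Part of the sequence of these genes is shared, which limits how surely reads were divided among them. Of the 31-base words in its GENCODE transcripts, ULBP2 shared 44.2% with other genes, mostly with RAET1L, and RAET1L shared 45.4%, mostly with ULBP2. The share was 15.7% for MICA and 14.2% for MICB, of which the largest part was between the 2, and 14.0% for ULBP1 and 17.4% for ULBP3, mostly with the pseudogene RAET1K. RAET1K itself had 18 and 28 counts in mock and 33 and 43 in JAZF1-SUZ12 libraries and was not called (edgeR, log2 fold change 0.71, adjusted p = 0.217). NCR3LG1 and PVR shared 0.326% and 2.7%. ULBP2 with RAET1G and RAET1L summed was 2.57 times higher in JAZF1-SUZ12 libraries against 2.56 times for ULBP2 alone, as ratios of mean CPM. Because RAET1G and RAET1L were at or near 0 in every library, the sum could hardly differ from ULBP2. It does not show whether shared reads were given to the right gene. Exons of CEACAM19 overlap those of PVR and exons of a protein-coding gene, AL355312.5, overlap those of RAET1E. AL355312.5 had between 0 and 14 counts and CEACAM19 between 7 and 14. Exons of HCP5, not analysed here, overlap those of MICA on the same strand.

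**Figure D2:**
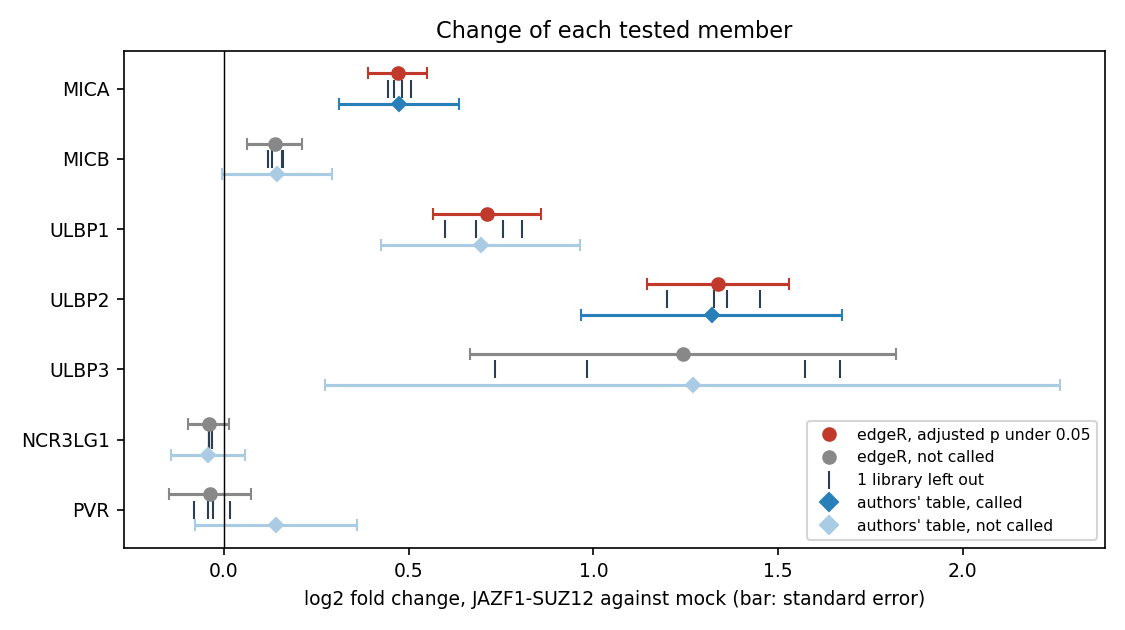
Difference between JAZF1-SUZ12 and mock, as log2 fold change, for the 7 tested ligands from the edgeR fit with its standard error (circles), from the 4 fits that each left out 1 library (ticks), and from the authors' deposited table with its standard error (diamonds). MICA, ULBP1 and ULBP2 stay right of 0 in each, ULBP3 has the widest bars, and NCR3LG1 and PVR lie at 0 within their errors.

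By the authors' deposited table, ULBP2 and MICA were called, with log2 fold changes of 1.32 and 0.48 (adjusted p = 0.00476 and 0.0425). Of the genes with an adjusted p there, 4.93% were called higher, 3.57% lower and 8.5% in either direction. ULBP1 missed the threshold in the authors' deposited table, at 0.70 on the log2 scale, standard error 0.27 (adjusted p = 0.0902). PVR had the opposite sign in the authors' deposited table, at 0.14 with a standard error of 0.22 (adjusted p = 0.844). Some of the authors' values lay far from refits of the deposited counts. JAZF1 was at 6.82 there, against 5.05 with edgeR and 5.06 with DESeq2 here, and KLRD1 at -0.86 against 0.51 with edgeR. Whether the authors' values rest on the deposited counts alone was not tested, so differing calls are not read as differences of method.

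To order the genes by abundance, CPM was divided by the length of the longest coding transcript in GENCODE, in kilobases (kb). In the mock libraries NCR3LG1 and MICB were highest, at 12.8 ± 0.0813 and 12.8 ± 0.202 CPM per kb (SD, n = 2 each), and their ranges overlapped. MICA followed at 10.3 ± 0.291 and PVR at 4.67 ± 0.236 CPM per kb. ULBP2 and ULBP1 were next, at 2.47 ± 0.0461 and 2.41 ± 0.0815 CPM per kb, with overlapping ranges, and ULBP3 was at 0.435 ± 0.125. In the JAZF1-SUZ12 libraries MICA was first, at 14.4 ± 0.0156 CPM per kb, followed by MICB at 14.25 ± 0.107 and NCR3LG1 at 12.7 ± 0.163. ULBP2 stood at 6.32 ± 0.854 CPM per kb, with both libraries above those of PVR, at 4.62 ± 0.0319, whereas in mock both had been below. The order of MICA and MICB and that of ULBP2 and PVR rest on the lengths used. Before division the JAZF1-SUZ12 means were 32.65 CPM for MICA and 34.87 CPM for MICB. They were 8.52 CPM for ULBP2 and 15.37 CPM for PVR. NKG2D ligands as a whole summed to 65.9 ± 0.509 CPM in mock against 89.8 ± 1.90 CPM with JAZF1-SUZ12 (SD, n = 2 each). ULBP1, ULBP2 and ULBP3 supplied 17% and 17.4% of these counts in mock and 23.3% and 25.9% in JAZF1-SUZ12 libraries.

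The RAET1 and ULBP genes span 185.7 kb, so the genes around them were examined too. Of genes that lie or reach within 500 kb on either side, 16 were tested, of which 13 were not ligands, and 3 of these 13 (LRP11, PPP1R14C and TAB2) were called higher and 1 (NUP43) lower, where the shares over all genes were 13.3% and 11.4%. LRP11, which encodes a receptor related to those for low-density lipoprotein, lies 78 kb before ULBP2. It had 317 and 308 counts in mock and 453 and 599 in JAZF1-SUZ12 libraries and rose by 0.74 on the log2 scale (edgeR, adjusted p = 6.57e-05). PPP1R14C, an inhibitor of protein phosphatase PP1, starts 201.1 kb beyond the ULBP2 start and had 682 and 790 counts in mock and 936 and 1368 in JAZF1-SUZ12 libraries. It rose by 0.62 (edgeR, adjusted p = 1.10e-05). TAB2, an adaptor of NF-kappaB signalling whose far end reaches into this window, rose by 0.20 (edgeR, adjusted p = 0.0263). On the far side of LRP11, NUP43, a nuclear pore subunit, was called slightly lower, at -0.15 on the log2 scale (edgeR, adjusted p = 0.0486). It was not called with DESeq2 (adjusted p = 0.110) or when any library other than JAZF1-SUZ12 replicate 1 was left out (adjusted p of 0.150 to 0.294).

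Read along the chromosome, the 7 tested genes from LRP11 onward, namely LRP11, ULBP2, ULBP1, RAET1K, ULBP3, PPP1R14C and IYD, all had positive log2 fold changes, from 0.62 to 1.34. Of these 7, RAET1K, ULBP3 and IYD were not called, and ULBP3 entered the test only through its JAZF1-SUZ12 libraries. The 9 tested genes before LRP11 had values from -0.18 to 0.20, and 4 of the 9 were positive. Over all genes tested, 50.5% were positive. The boundary at LRP11 was chosen after the values were seen, and no test was made of it.

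**Figure D3:**
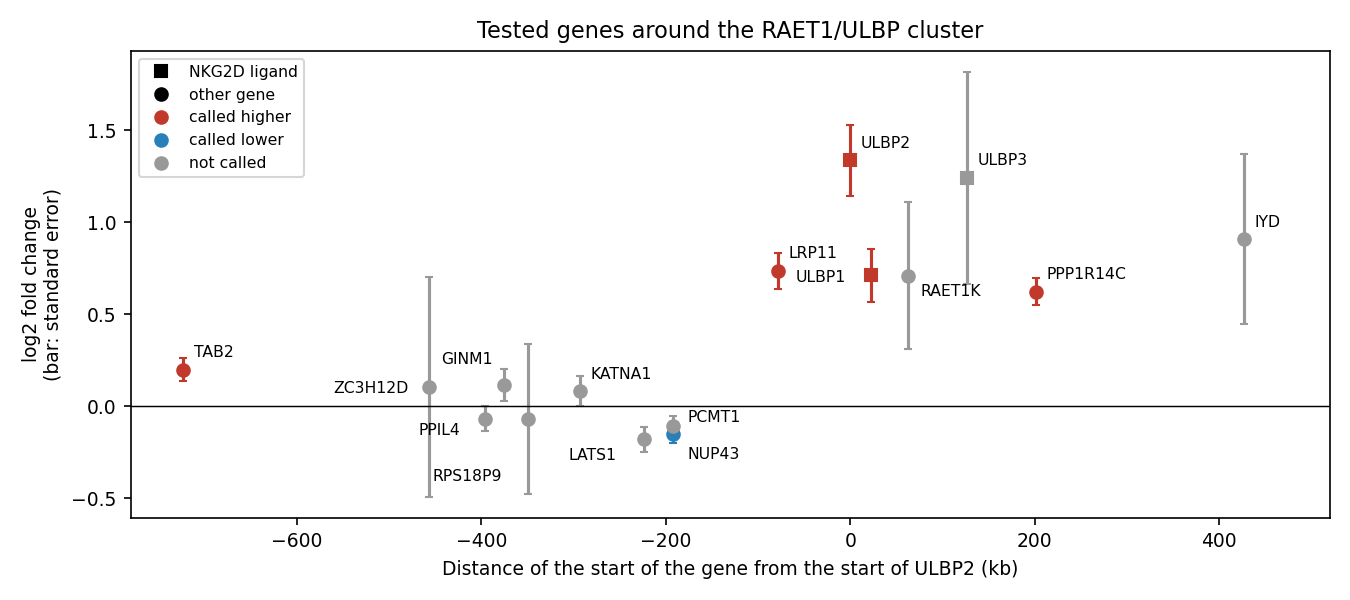
Log2 fold change, with its standard error, of every tested gene that lies or reaches within 500 kb of the RAET1 and ULBP genes, against the distance of its start from that of ULBP2 in kb. Squares are ligands and circles other genes. Genes from LRP11 rightward lie between 0.62 and 1.34, and genes to its left lie between -0.18 and 0.20.

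The neighbours of the other ligands were taken from lists by position, and their counts stand beside a share of 24.7% called over all genes. Near MICA and MICB, 0 of 8 tested genes were called (edgeR, with 2 at an unadjusted p under 0.05, and DESeq2 called 0). The authors' deposited table did call DDX39B of this list lower, at -0.22 on the log2 scale (adjusted p = 0.00668). Its value with edgeR was -0.11 (adjusted p = 0.104). Near PVR, BCAM and BCL3 were called among 5 tested. BCAM, the Lutheran blood group antigen, rose by 0.89 (edgeR, adjusted p = 0.000124). BCL3, an inhibitor-of-NF-kappaB family protein, rose by 0.63 (edgeR, adjusted p = 0.0352). With DESeq2 its value was also 0.63 but the call was lost (adjusted p = 0.149), and its edgeR adjusted p was 0.0783 to 0.164 when mock replicate 1, mock replicate 2 or JAZF1-SUZ12 replicate 2 was left out. Near NCR3LG1, 3 of 6 tested genes (KCNJ11, PIK3C2A and PLEKHA7) were called higher and 1 (NUCB2) lower. KCNJ11, a subunit of ATP-sensitive potassium channels that lies next to NCR3LG1, rose by 0.71 (edgeR, adjusted p = 0.00528). PIK3C2A, a lipid kinase, and PLEKHA7, a junction protein, had adjusted p-values of 0.0444 and 0.0488 (edgeR), and PIK3C2A lost its call with DESeq2 (0.197) and on leaving out any library (0.096 to 0.148). For PLEKHA7, with 30 and 28 counts in mock and 49 and 63 with JAZF1-SUZ12, the other fits are not given here. NUCB2, which encodes nucleobindin, fell by 0.34 (edgeR, adjusted p = 0.00251). USH1C had 0 counts in both mock libraries and 14 and 9 with JAZF1-SUZ12, and was not tested. The authors' deposited table called it higher (adjusted p = 0.0279).

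Other ligands that NK cells use to bind or recognise a target were lower wherever they were called. Of 14 in the list 11 were tested, 0 were called higher and 4 lower, with a median log2 fold change of -0.20. Over all genes 13.3% were called higher and 11.4% lower. The count of called ligands was 2 on leaving out any 1 library. ICAM1, the ligand of the integrin LFA-1 in adhesion of NK cells, fell from 31.4 ± 1.06 to 24.6 ± 0.718 CPM (SD, n = 2 each), by 0.38 on the log2 scale (edgeR, adjusted p = 0.00303). PCNA, the replication clamp that can also bind NKp44, fell by 0.21 (edgeR, adjusted p = 0.00371). Whether PCNA activates or inhibits NK cells was not tested, and its fall is not read as loss of an activating ligand. The list is named other activating or adhesion ligands further on, which is a label and does not make each member activating. ICAM2, a second LFA-1 ligand, and SLAMF6, a self-ligand also found on NK cells, were called lower as well, with log2 fold changes of -0.20 and -1.04 (edgeR, adjusted p = 0.0396 and 0.032). These latter calls were lost with DESeq2 (adjusted p = 0.191 and 0.118) and on leaving out any library (0.0785 to 0.189 and 0.0628 to 0.147). NECTIN2, the other ligand of DNAM-1, had a mean of 116 ± 5.10 CPM in mock against 123 ± 2.93 CPM with JAZF1-SUZ12 (SD, n = 2 each) and did not pass (edgeR, log2 fold change 0.062, adjusted p = 0.457).

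Among 15 ligands of inhibitory receptors, 9 were tested, 2 were called higher and 2 lower, with a median log2 fold change of -0.11, where 24.7% of all genes were called. NECTIN1, an adhesion molecule bound by CD96, had 11 and 31 counts in mock and 101 and 136 in JAZF1-SUZ12 libraries (edgeR, log2 fold change 2.48, adjusted p = 6.87e-05). The size rested on the mock library used: it was 3.38 with replicate 1 as the lone mock library and 1.95 with replicate 2. CEACAM1, which binds CEACAM1 on NK cells, had 10 and 16 counts in mock and 31 and 52 in JAZF1-SUZ12 libraries (edgeR, log2 fold change 1.63, adjusted p = 0.0132). It lost its call without JAZF1-SUZ12 replicate 2 (adjusted p = 0.103) and without mock replicate 1 (0.0752). HLA-E, the ligand of NKG2A, fell from 81.6 ± 3.88 to 72.7 ± 0.736 CPM (SD, n = 2 each), by 0.19 (edgeR, adjusted p = 0.0282). CD47, a brake on phagocytosis and killing, fell by 0.19 (edgeR, adjusted p = 0.0362). The 2 decreases were not called with DESeq2 (adjusted p = 0.0948 and 0.155), and that of HLA-E was lost without mock replicate 2 (0.232) or JAZF1-SUZ12 replicate 2 (0.0787) and that of CD47 on leaving out any library (0.0585 to 0.191).

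Of 4 death receptors, through which NK cells can also kill, all were tested and 1 was called, which is 25% and near the 24.7% of all genes. TNFRSF10B, a receptor of the death ligand TRAIL, rose from 37.5 ± 0.780 to 48.2 ± 2.30 CPM (SD, n = 2 each), by 0.34 (edgeR, adjusted p = 0.0018). TNFRSF10A, another TRAIL receptor, and TNFRSF1A went the other way, with log2 fold changes of -0.22 and -0.23. They did not pass (edgeR, adjusted p = 0.0907 and 0.0523). FAS had 7 and 24 counts in mock and 26 and 36 with JAZF1-SUZ12 and did not pass (edgeR, log2 fold change 0.98, adjusted p = 0.188). It entered the test only through its JAZF1-SUZ12 libraries.

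NKG2D ligands are shed from the cell by metalloproteinases. Of 8 genes of this process, 7 were tested and 1 was called, which is 14.3% against 24.7% of all genes. TIMP3, a secreted inhibitor of the shedding enzymes, had 59 and 68 counts in mock and 225 and 347 in JAZF1-SUZ12 libraries, 4.41-fold higher (edgeR, log2 fold change 2.14, adjusted p = 1.94e-07). ADAM10 and ADAM17, enzymes that cleave MICA and MICB, had log2 fold changes of -0.14 and -0.054 and did not pass (edgeR, adjusted p = 0.0625 and 0.634). ADAM10 passed with limma-voom (0.0463), without a filter (0.0415), with the replicate number as a block (0.0485) and without JAZF1-SUZ12 replicate 1 (0.0344). The direction of ADAM17 turned without JAZF1-SUZ12 replicate 2 or mock replicate 1.

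Of 21 genes reported to regulate these ligands, all were tested, 1 was called higher and 3 lower, or 19% against 24.7% of all genes. STAT3, a transcription factor reported to repress MICA, rose from 266 ± 6.60 to 336 ± 8.44 CPM (SD, n = 2 each), by 0.31 (edgeR, adjusted p = 9.37e-05). CHEK2, a kinase of the DNA damage response, fell by 0.31 (edgeR, adjusted p = 0.00569). EZH2, the methyltransferase of PRC2, fell by 0.17 (edgeR, adjusted p = 0.0134) and was not called without mock replicate 1 (0.107). E2F2, a transcription factor of the cell cycle, fell by 0.21 (edgeR, adjusted p = 0.0333). Its value was -0.21 with DESeq2 (adjusted p = 0.169) and -0.19 with total counts as the scaling (edgeR, adjusted p = 0.0584), where the call was lost. E2F2 was also not called without JAZF1-SUZ12 replicate 2 (0.162), mock replicate 1 (0.156) or mock replicate 2 (0.0723). ATF4 and RBM4, which act on ULBP1 transcription and splicing, had log2 fold changes of -0.060 and -0.080, and HSF1 and HDAC3, an activator of MICA and MICB and a repressor of ULBP genes, had 0.070 and -0.11. None of these 4 was called (edgeR, adjusted p of 0.347, 0.348, 0.417 and 0.147).

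Some of these calls outside the 10 ligands were not made in the authors' deposited table. There LRP11, PPP1R14C, KCNJ11, PCNA, NECTIN1, CEACAM1, TNFRSF10B, TIMP3 and STAT3 were called. By contrast ICAM1, BCAM, NUCB2, CHEK2, EZH2, HLA-E, CD47, ICAM2, SLAMF6, E2F2, NUP43, BCL3, PIK3C2A and PLEKHA7 missed the threshold. Their adjusted p in the authors' deposited table ran from 0.0961 for BCAM to 0.716 for E2F2.

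**Figure D4:**
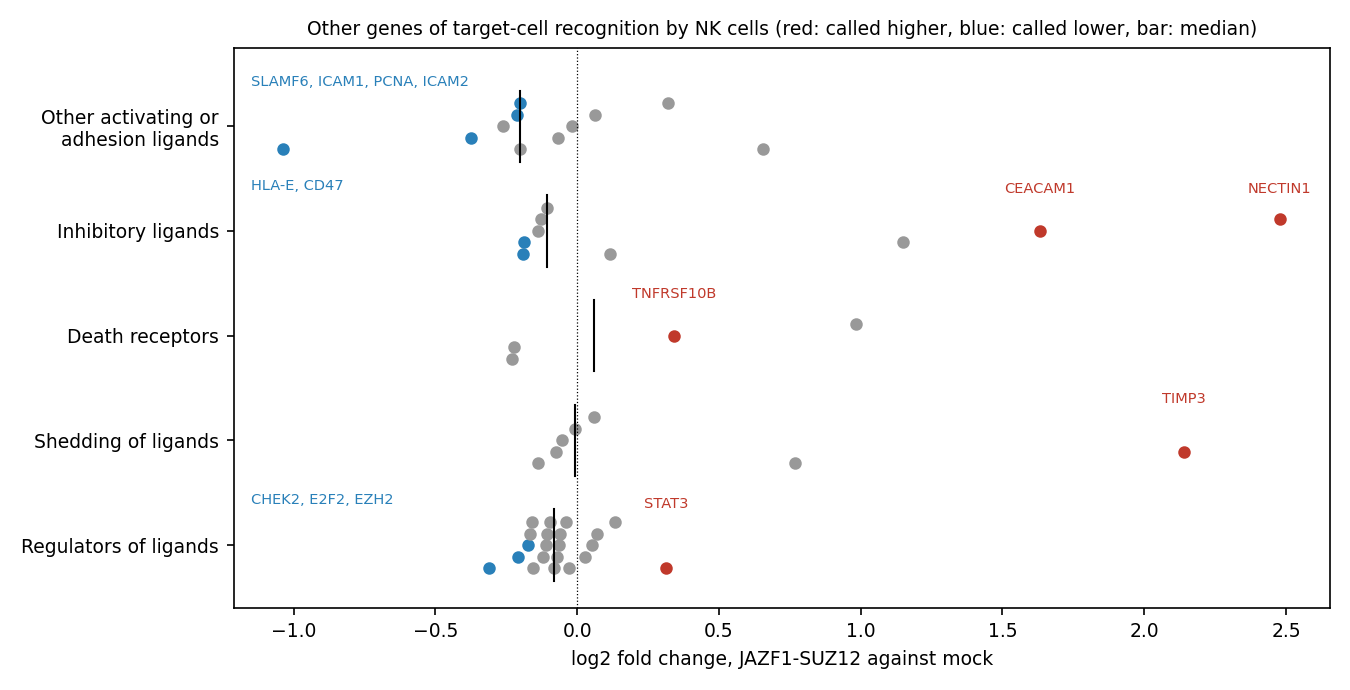
Difference between JAZF1-SUZ12 and mock, as log2 fold change, for the tested genes of 5 lists (rows); each point is a gene, its height within a row has no meaning, and the bar is the list's median. Called genes are named and coloured. The largest increases are NECTIN1 at 2.48, TIMP3 at 2.14 and CEACAM1 at 1.63, and the called decreases, apart from SLAMF6 at -1.04, are small.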

How the data were processed

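Poly(A)-selected, directional RNA-seq libraries of K562 cells were compared, 2 JAZF1-SUZ12 against 2 mock, per the labels' protocols. The authors deposited estimated counts per gene, not normalized; kallisto 0.46.2, fastp 0.20.1, DESeq2 1.30.1 and the build hg38 are named per the submitters' processing notes, without their order or role. The annotation and strand setting are not given in the sources used here. Between 29.2% and 32.8% of values in a library differed from a whole number by over 0.001, and counts were rounded.

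The design was fixed for whole-number counts or rounded estimates. Genes kept by filterByExpr were compared after TMM scaling with edgeR 4.0.16 (R 4.3.3) by the quasi-likelihood F test over all 14750 genes, with group as the only term and Benjamini-Hochberg adjustment at 0.05. The standard error was taken as the absolute log2 fold change over the root of F. CPM is counts over the library total. Alternatives were DESeq2 1.42.0, limma-voom (limma 3.58.1), other scalings and filters, the replicate number as a block, rows with a shared symbol summed, a threshold of 0.01 and leaving out each library. In simulated counts, edgeR recovered 197 of 200 genes changed 2-fold among 14504, with 3 false calls. The simulation gave all genes the same dispersion and changed only well-counted genes. It therefore does not cover smaller changes or scarce genes such as ULBP3, and gives no rate of false calls for the real libraries.

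The authors deposited their own comparison, with the column names of DESeq2 per the file headers. From it come the authors' log2 fold change, its standard error and the authors' adjusted p-value. The mean signal and the test score that the authors deposited beside them are not printed. Positions and lengths come from GENCODE 29; promoter sequences come from RefSeq, where all 10 genes had an entry.

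The members, lists and naming rule were chosen with earlier results of these data known. The rule names all members, the check genes and 8 fixed genes. It also names up to 4 called genes of each list and up to 3 of each locus list. RAET1K, IYD, TAB2, PLEKHA7, DDX39B, USH1C, TNFRSF10A, TNFRSF1A, FAS, genes that overlap members and single markers were named after their values were seen. The label replicate numbers are not said to mark a shared culture.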

Additional observations from a re-analysis of the deposited data

How the results depend on the processing

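The calls of ULBP2, ULBP1 and MICA held in each of the 8 alternative fits and in the 4 fits that left out 1 library, where the lone sample is assumed to vary like the other group. The members called higher numbered 3 in every setting, from 3 to 3 on leaving out 1 library, and those called lower numbered 0. Over 90 member values, 1 changed sign: PVR, at 0.018 without mock replicate 1, ranged from -0.080 to 0.018 on leaving out 1 library. ADAM17 ranged from -0.13 to 0.026 and was positive without JAZF1-SUZ12 replicate 2 (0.026) and without mock replicate 1 (0.017). ULBP3 could not be fitted with a mean of at least 50 counts. With the replicate number as a block, the death receptors called rose from 1 to 3 and the shedding genes from 1 to 2, and no member's call changed; the correlation of the deviations of same-numbered libraries was -0.00072 over 14750 genes, and the numbers are not taken as pairing the libraries.

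All genes called numbered 3643 (4061 with the block), against 2407 with DESeq2 and 2045 at an adjusted p under 0.01, a threshold that lowers counts by construction. The death receptors called were 2 with DESeq2 size factors, 2 with limma-voom and 3 with no filter. Inhibitory ligands called fell from 4 to 1 at the 0.01 threshold, 2 with DESeq2 and 2 with a mean of at least 50 counts. Regulators called fell from 4 to 2 at 0.01. Over all genes, those called lower fell from 1688 to 953 without mock replicate 1, 1064 without mock replicate 2, 1072 without JAZF1-SUZ12 replicate 2 and 1051 with DESeq2. Shedding genes called were 2 with limma-voom and 2 with no filter. Other activating or adhesion ligands called fell from 4 to 2 at 0.01, 2 with DESeq2 and 2 with a mean of at least 50 counts. On leaving out 1 library, the counts ranged from 2455 to 3734 for all genes, from 1 to 3 for death receptors, from 1 to 4 for inhibitory ligands, from 3 to 5 for regulators, from 1 to 2 for shedding genes, from 2 to 2 for other activating or adhesion ligands. Apart from the 0.01 threshold, the cause of these shifts was not tested. Low counts limit ULBP3 and the 3 RAET1 genes.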
